A study of Mus musculus with 30 samples.

Results

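Transcripts of rod photoreceptors were measured in libraries made from retinal pigment epithelium (RPE) of postnatal day 25 mice. The rods were represented by 9 genes, Gnat1, Gnb1, Sag, Pde6a, Pde6b, Cnga1, Rcvrn, Nrl and Nr2e3, chosen by exact symbol among the 55573 genes of the RPE table. The question was whether their RNA followed the Mertk genotype of the mouse or the library it was found in. The 18 RPE libraries came from 4 groups of untreated mice: C57BL/6 wildtype (B6 WT, n = 6), Mertk-/-V1 (n = 6), Mertk-/-V2 (n = 3) and Mertk-/-V3 (n = 3). The 3 knockouts are germline deletions. The V1 allele was made in 129P2 embryonic stem cells, retains a neomycin cassette and, after backcrossing to C57BL/6J, carries 129P2 sequence around the locus. The V2 allele came from a floxed allele of C57BL/6NJ origin recombined in the germline by a ubiquitous, tamoxifen-dependent Cre that was later bred out. The V3 allele was made by CRISPR/Cas9 in C57BL/6NJ eggs, so V2 and V3 mice carry mixed C57BL/6J and C57BL/6NJ genomes. All 18 labels name the strain C57BL/6J. RPE was shaken off posterior eyecups in an RNA-preserving solution and pelleted, with no sort or gate that would remove other cells. Bone marrow-derived macrophages (BMDMs) of the same 4 genotypes, 3 libraries each, served as a sample without photoreceptors. The labels call the libraries biological replicates and do not name the animals, so the p-values measure the spread between libraries.

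Rods detect dim light. Light switches on the G protein transducin, whose alpha subunit is Gnat1 and whose beta subunit is Gnb1. Transducin relieves the inhibition of the cGMP phosphodiesterase, whose catalytic subunits are Pde6a and Pde6b, and the fall in cGMP closes a cation channel that contains Cnga1. Arrestin (Sag) ends the light signal, and recoverin (Rcvrn) is a calcium sensor that tunes its recovery. The transcription factors Nrl and Nr2e3 set the rod program, and Nr2e3 also represses cone genes. The RPE faces the rod tips and engulfs shed outer segments, a process in which Mertk takes part. Of these genes Gnb1 is not restricted to photoreceptors.

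Total reads per RPE library ranged from 14137666 to 34124049. They were higher in B6 WT and Mertk-/-V1 replicates 1 to 3 (23417838 to 34124049) and in Mertk-/-V2 (29522487 to 33169749) than in replicates 4 to 6 of the first 2 genotypes (14137666 to 20779930) and in Mertk-/-V3 (16476097 to 21573517). Mitochondrially encoded genes took 3.93% to 5.73% of reads. RPE markers were abundant: the summed normalized counts of 13 RPE genes lay between 210227 and 946271, with Rgr, an RPE opsin, the most abundant of them. Mertk itself, in normalized counts, was 2638 to 3924 (B6 WT), 919 to 1717 (Mertk-/-V1), 3565 to 5311 (Mertk-/-V2) and 444 to 1106 (Mertk-/-V3). Mertk reads were not fewer in Mertk-/-V2 than in B6 WT, and since a gene total also counts reads outside a removed exon, it does not check that label.

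All 9 genes were detected in all 18 libraries, and all 9 passed the filter of a mean normalized count of 10. A normalized count is the number of reads of a gene divided by the size factor of its library. The 8 genes other than Gnb1 together made up between 0.0536% of reads in B6 WT replicate 1 (95% Wilson interval 0.0527% to 0.0544%) and 1.37% in Mertk-/-V1 replicate 5 (1.36% to 1.37%), where the intervals cover counting error only. That is a 25.5-fold range, against 2.41-fold for the total reads. In bulk RNA, a smaller number of rods and less RNA per rod cannot be told apart.

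Gnat1 stood at 7449, 24980, 22549, 29220, 69518 and 61214 normalized counts in B6 WT replicates 1 to 6. In Mertk-/-V1 replicates 1 to 6 it was 20104, 12506, 13318, 29402, 187583 and 101436. In Mertk-/-V2 it was 38595, 50144 and 29923, and in Mertk-/-V3 88077, 42123 and 13912. The ranges of all 4 genotypes overlapped. The highest library exceeded the lowest 25.2-fold, and 9.33-fold among the 6 B6 WT libraries alone. The medians ran from 24754 in Mertk-/-V1 through 27100 in B6 WT and 38595 in Mertk-/-V2 to 42123 in Mertk-/-V3, and no neighbours in that order differed beyond the spread of their libraries.

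**Figure D1:**
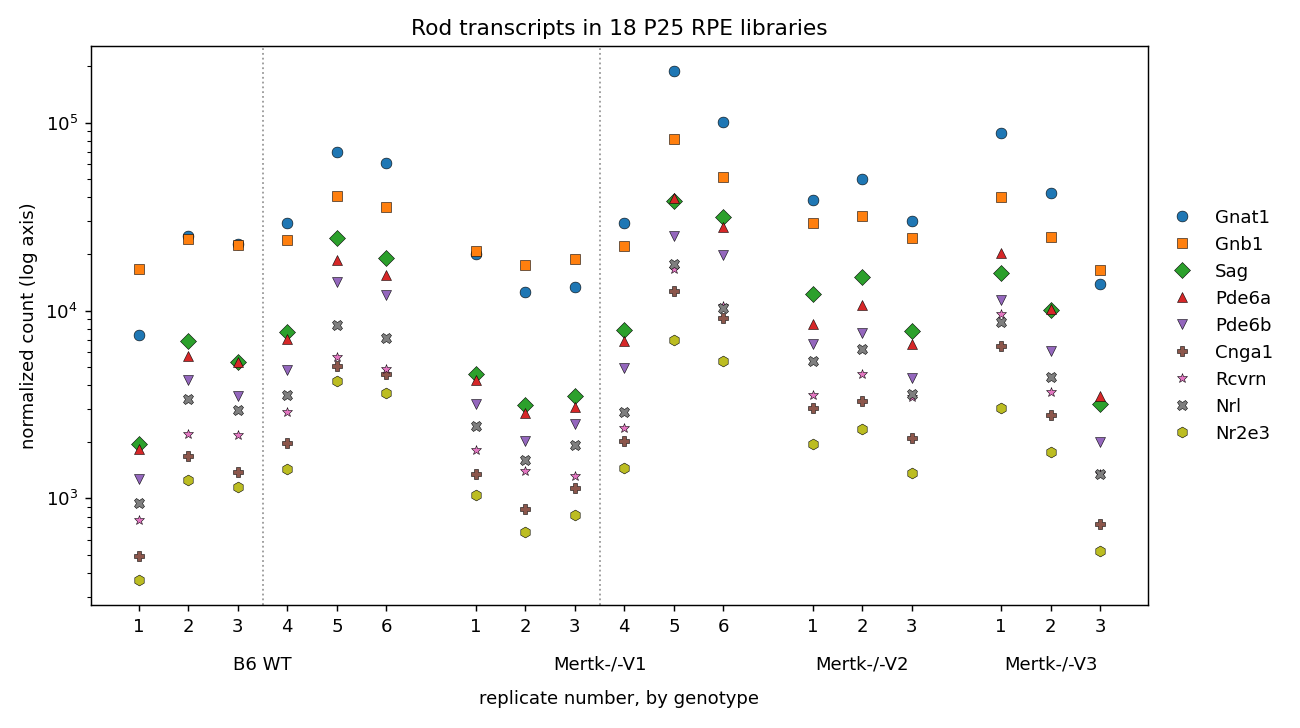
Normalized counts (log axis) of the 9 rod genes in each of the 18 RPE libraries, by genotype and replicate number, 1 marker per gene and library; dotted lines part replicates 1 to 3 from 4 to 6. The 9 genes shift up and down together from library to library, and Mertk-/-V1 replicates 5 and 6 are the highest for each of them.

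The phototransduction genes repeated this pattern. Sag, the rod arrestin, was 1946, 6879, 5340, 7650, 24200 and 19006 normalized counts in B6 WT and 4568, 3156, 3489, 7906, 38463 and 31560 in Mertk-/-V1. Its values were 12220, 14994 and 7773 in Mertk-/-V2 and 15865, 10079 and 3188 in Mertk-/-V3. As for Gnat1, B6 WT replicate 1 was lowest and Mertk-/-V1 replicate 5 highest. Pde6a ranged from 1834 to 39822 normalized counts (21.7-fold) and Pde6b, its partner in the phosphodiesterase, from 1274 to 24944 (19.6-fold). The channel subunit Cnga1 ranged from 494 to 12629 (25.6-fold) and the calcium sensor Rcvrn from 764 to 16706 (21.9-fold). Both rod transcription factors varied alike, Nrl from 950 to 17590 (18.5-fold) and Nr2e3 from 368 to 7005 (19.0-fold). For each of these 8 genes B6 WT replicate 1 was the lowest library and Mertk-/-V1 replicates 5 and 6 were the highest 2. Without those 2 libraries the range over the other 16 was still 9.18-fold for Nrl to 13.1-fold for Cnga1, with Mertk-/-V3 replicate 1 or B6 WT replicate 5 then on top.

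Rcvrn lies within a gene on the opposite strand, Glp2r, which reached 1931 normalized counts, and how reads were assigned by strand is not given in the sources used here. The genes that overlap other members stayed at 106 normalized counts or below.

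Gnb1 varied less. It was 16688, 24092, 22261, 23859, 40816 and 35719 normalized counts in B6 WT, and 20724, 17574, 18862, 22066, 81507 and 51656 in Mertk-/-V1. In Mertk-/-V2 it was 29414, 31802 and 24320, and in Mertk-/-V3 40325, 24530 and 16500. The order of libraries resembled that of Gnat1, but the range was only 4.94-fold. A straight line of Gnb1 on Gnat1 over the 18 libraries met the axis at 13250 normalized counts, 43.9% of the mean of Gnb1. For the other rod genes this intercept was lower, from -0.0814% (Cnga1) and 1.98% (Rcvrn) to 15.6% (Nrl and Nr2e3) of the mean. Set against the lowest library of each gene, the order differed. The Gnb1 intercept was 0.803 of its lowest value, below Nr2e3 (0.929), Sag (0.893) and Nrl (0.845). It was above Pde6b (0.644), Pde6a (0.271), Rcvrn (0.114) and Cnga1 (-0.00555). In BMDMs Gnb1 was present at 574 to 616 CPM (scaled to the library total), near the 593 CPM of the lowest RPE library. None of the other 8 genes exceeded 1.13 CPM in any of the 12 BMDM libraries. Nr2e3 was listed at 0 in 12 of 12 BMDM libraries, and Cnga1 and Nrl in 11 of 12.

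Per kilobase of annotated exon, Gnat1 was the most abundant of the 9 genes, with a median of 9793 normalized counts per kilobase over the 18 libraries. The length used was the union of all annotated exons of a gene, such as 8904 bases for Sag and 1040 for Rcvrn. Gnb1 followed at 5672 and Rcvrn at 3049. The phosphodiesterase subunits were at 1492 (Pde6a) and 974 (Pde6b), Sag at 880, Nrl at 631 and Nr2e3 at 428, and Cnga1 was lowest at 326. The span of each gene over libraries was far wider than the steps between neighbours in this order. The order depends on that length and is not a ranking of transcripts. By median CPM, Sag (314) was above Pde6a (280), Pde6b (196) and Rcvrn (121).

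Ratios of the rod genes other than Gnb1 to Gnat1 varied far less than their levels. The ratio of Pde6a to Gnat1 varied only 1.29-fold over the 18 libraries, from 0.212 to 0.274, and that of Rcvrn to Gnat1 1.46-fold. Nrl (1.54-fold), Pde6b (1.60-fold), Cnga1 (1.70-fold) and Nr2e3 (1.77-fold) lay between, and the widest was Sag, whose ratio to Gnat1 varied 1.93-fold, from 0.180 to 0.348. The ratio of Gnb1 to Gnat1 varied 5.16-fold, against 4.94-fold for Gnb1 itself. Some ratios of a knockout lay outside the B6 WT range, a description chosen after the values were seen and not tested. How many other genes would separate in this way was not computed. The 3 libraries of Mertk-/-V3 lay below every B6 WT library in the ratio to Gnat1 of Nr2e3 (0.0346 to 0.0422 against 0.0489 to 0.0609), Nrl (0.0971 to 0.106 against 0.117 to 0.135) and Pde6b (0.128 to 0.145 against 0.156 to 0.205). The ratio of Pde6a was below every B6 WT library in Mertk-/-V2 (0.213 to 0.222 against 0.229 to 0.269). Low ratios were not particular to these genotypes. In Mertk-/-V1 the ratios reached down to 0.0373 (Nr2e3), 0.0938 (Nrl), 0.133 (Pde6b) and 0.212 (Pde6a). For Sag, Cnga1, Rcvrn and Gnb1 the Mertk-/-V3 range overlapped that of B6 WT.

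**Figure D2:**
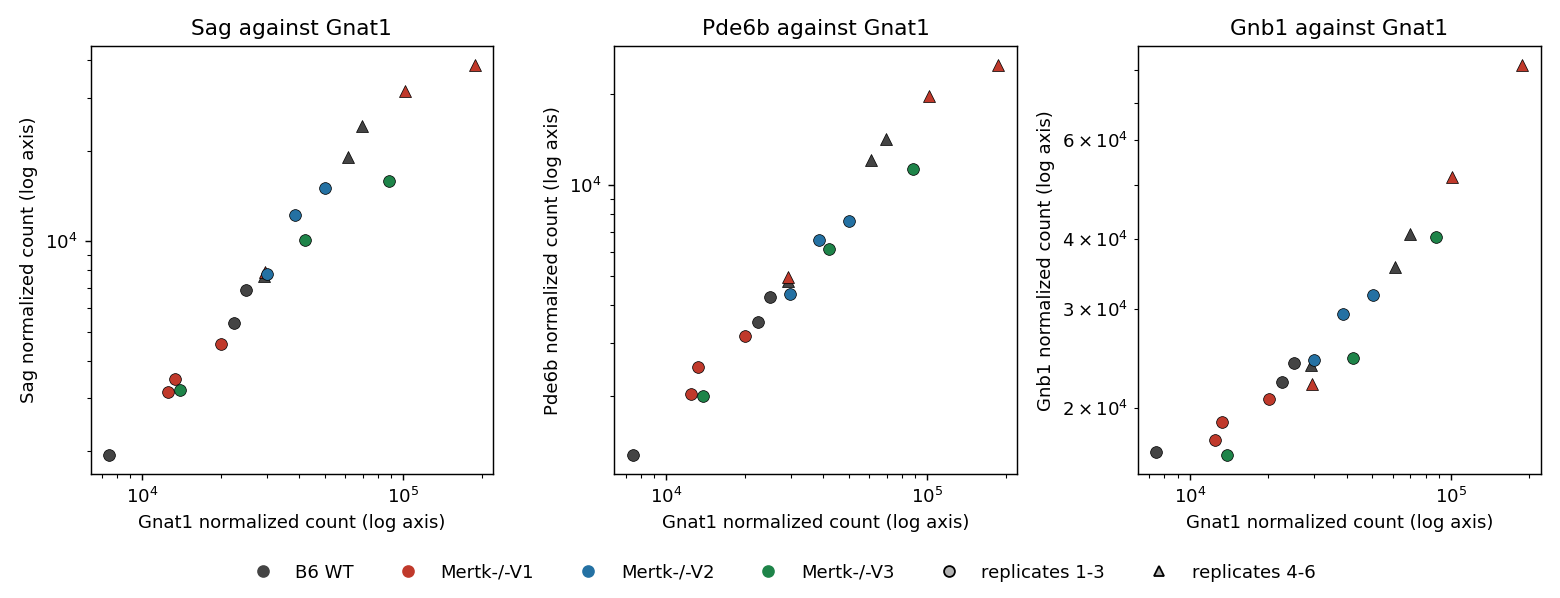
Normalized counts of Sag, Pde6b and Gnb1 against Gnat1 in the 18 RPE libraries (both axes log), coloured by genotype, with circles for replicates 1 to 3 and triangles for 4 to 6. Sag and Pde6b rise almost in proportion to Gnat1, while Gnb1 flattens at low Gnat1, with its lowest libraries near 16500.

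The genes most like the rod genes were sought among all 18832 genes with a mean normalized count of at least 10, by the Pearson correlation of log2 values over the 18 libraries with the mean of the 8 genes other than Gnb1. The 10 closest included Pdc (0.9976), Prph2 (0.9974), Kcnj14 (0.9963), Pde6g (0.9950), Slc17a7 (0.9945), AI847159 (0.9943), Crx (0.9942) and Gngt1 (0.9932). Pdc is phosducin, Prph2 the outer segment rim protein peripherin, Pde6g the inhibitory subunit of the phosphodiesterase, Gngt1 the gamma subunit of transducin, Crx a photoreceptor transcription factor, Kcnj14 a potassium channel and Slc17a7 a vesicular glutamate transporter. Prph2 ran from 2013 to 53820 normalized counts. Of 31 other rod and pan-photoreceptor genes tested, 27 had a correlation above 0.9, as did 5.78% of all genes. The lowest of the 31 was Abca4 (0.44), a transporter that the RPE also expresses. These correlations are descriptions: the points share the scaling of each library, and the chosen 8 genes define the pattern.

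RefSeq sequence upstream of the start (build GRCm38.p6) was on hand for 6 of the 9 genes, and the 250 bases before the start are shown for 3 rod genes and for Gnb1, which many tissues use. Capitals mark the letters TAATCC or their reverse complement GGATTA, the core of sites for the photoreceptor factor Crx, and TGCTGA or its reverse complement TCAGCA, the half-site of Maf factors such as Nrl. Sag is on chromosome 1 (chr1:87803430-87803679, plus strand), Pde6b on chromosome 5 (chr5:108388123-108388372, plus strand), Cnga1 on chromosome 5 (chr5:72642753-72643002, minus strand) and Gnb1 on chromosome 4 (chr4:155491111-155491360, plus strand).
Sag: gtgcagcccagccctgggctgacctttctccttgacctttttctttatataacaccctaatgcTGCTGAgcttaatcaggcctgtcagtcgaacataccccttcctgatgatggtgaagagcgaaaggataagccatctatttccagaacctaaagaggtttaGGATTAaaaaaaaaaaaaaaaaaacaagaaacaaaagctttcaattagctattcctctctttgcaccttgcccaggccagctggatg
Pde6b: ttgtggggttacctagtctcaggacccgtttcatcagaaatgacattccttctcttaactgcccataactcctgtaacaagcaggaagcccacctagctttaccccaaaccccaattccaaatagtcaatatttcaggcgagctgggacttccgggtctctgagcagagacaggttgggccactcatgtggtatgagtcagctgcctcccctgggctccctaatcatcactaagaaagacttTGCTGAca
Cnga1: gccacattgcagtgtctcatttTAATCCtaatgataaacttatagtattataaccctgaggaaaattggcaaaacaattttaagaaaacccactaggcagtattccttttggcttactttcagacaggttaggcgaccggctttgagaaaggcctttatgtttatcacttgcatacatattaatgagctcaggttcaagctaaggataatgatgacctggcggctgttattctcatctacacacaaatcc
Gnb1: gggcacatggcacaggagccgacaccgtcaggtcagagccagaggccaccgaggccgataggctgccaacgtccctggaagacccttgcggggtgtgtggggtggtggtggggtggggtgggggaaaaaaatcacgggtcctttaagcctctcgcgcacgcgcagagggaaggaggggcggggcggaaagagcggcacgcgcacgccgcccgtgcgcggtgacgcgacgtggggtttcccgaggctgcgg
In Sag the Crx core lay 87 to 82 bases before the start on the minus strand, and the Maf half-site 187 to 182 bases before it. In Pde6b the half-site was 8 to 3 bases before the start, and in Cnga1 the Crx core was 228 to 223 bases before it. No 2 of these matches overlapped. The windows of Nrl, Nr2e3 and Gnb1 held neither run of letters. Each run was thus in 2 of 6 windows, beside 6.25% (Crx core) and 16.1% (Maf half-site) of 32851 windows of this length. The Gnb1 window was 69.2% G and C with 26 CpG dinucleotides, beside a median of 52.4% and 6 over all windows, whereas the 5 rod windows were 38.4% to 52.8% G and C with 2 or 3 CpG. A match of letters describes the window and does not establish a site.

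Genotype was compared first, in a limma fit over the 18 libraries. A gene was called where its adjusted p was below 0.05 and it differed at least 2.38-fold, and none of the 9 rod genes was. In Mertk-/-V1 against B6 WT, 0 of 9 passed, beside 0.149% of all genes. The log2 fold change of Gnat1 was 0.31 (SE 0.70, 95% interval -1.17 to 1.79; adjusted p = 0.939), and those of the 9 genes lay between 0.16 (Sag) and 0.43 (Cnga1). In Mertk-/-V2 against B6 WT, 0 of 9 passed, beside 0.0584% of all genes, and Gnat1 was at 0.45 (95% interval -1.36 to 2.26; adjusted p = 0.999). In Mertk-/-V3 against B6 WT, 0 of 9 passed, beside 0.0637%, and Gnat1 was at 0.39 (95% interval -1.42 to 2.20; adjusted p = 0.837). Setting Mertk-/-V1 against the average of Mertk-/-V2 and Mertk-/-V3 gave 0 of 9, beside 0.0956%, with Gnat1 at -0.11 (95% interval -1.59 to 1.37; adjusted p = 0.987). In all 4 contrasts of this fit, which has no replicate term, 0 of the 9 genes had an unadjusted p under 0.05, beside 6.81%, 5.47%, 11.1% and 9.56% of all genes in turn. edgeR and DESeq2 on the recovered reads also called 0 rod genes, beside 9 to 31 (edgeR) and 21 to 64 (DESeq2) of 18832 genes. The 3 contrasts with B6 WT share its libraries. These intervals still hold changes of more than 2-fold in either direction for every rod gene but Gnb1, so they do not show that the genotypes are alike.

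The spread between libraries of a genotype was wide. On the log2 scale the residual SD of the 8 genes was 1.21 (Nrl) to 1.37 (Cnga1), and 0.67 for Gnb1, beside a median of 0.35 over 18832 genes. Genotype accounted for between 0.913% (Pde6b) and 3.98% (Rcvrn) of the variance of the 9 genes over the 18 libraries.

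Replicate numbers were compared next. B6 WT and Mertk-/-V1 have libraries numbered 4 to 6, the other two genotypes do not, and the labels do not say whether numbers 1 to 3 and 4 to 6 were prepared apart. In a fit over these 12 libraries with genotype as a term, 8 of the 9 rod genes were higher in replicates 4 to 6 than in 1 to 3, beside 7.35% of all genes higher and 9.32% called in either direction. The change was 4.13-fold for Gnat1 (log2 2.05, SE 0.46, 95% interval 1.05 to 3.04; adjusted p = 0.00807). It was 4.59-fold for Sag (adjusted p = 0.00735), 4.42-fold for Pde6a and 4.34-fold for Pde6b, and 4.35-fold for Cnga1. Rcvrn rose 3.73-fold, Nr2e3 4.00-fold and Nrl 3.42-fold, the last with an adjusted p of 0.0106. Gnb1 differed by 1.94-fold (log2 0.95; adjusted p = 0.0197), which is under the fold threshold. These p-values treat the 12 libraries as independent, although same-numbered libraries of both genotypes deviated together from their group means. Such deviations cannot tell a link by number from the difference between sets. With the set in the model, the consensus correlation by number was 0.146. In 2 fits added after seeing the data, the number was taken into account. With same-numbered libraries averaged, leaving 3 pairs against 3, 0 of 9 rod genes and 0% of all genes were called. Gnat1 was then at the same log2 difference of 2.05 (95% interval 0.86 to 3.23; adjusted p = 0.0586), the adjusted p of the 9 genes lay between 0.0586 and 0.0772, and 9 of 9 had an unadjusted p under 0.05, beside 44% of all genes. With the number as a random effect, 8 of 9 were called, beside 9.06% of all genes, and Gnat1 had an adjusted p of 0.0122. Replicate number, as 1 to 3 or 4 to 6, accounted for 50.2% (Gnb1) to 67.4% (Sag) of the variance of the 9 genes in these 12 libraries. Genotype accounted for 0.342% to 2.60% there. These shares were not computed for other genes. Differences between the sets were common: in the fit with genotype as a term, 40.8% of all genes had an adjusted p under 0.05, as did 9 of 9 rod genes.

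**Figure D3:**
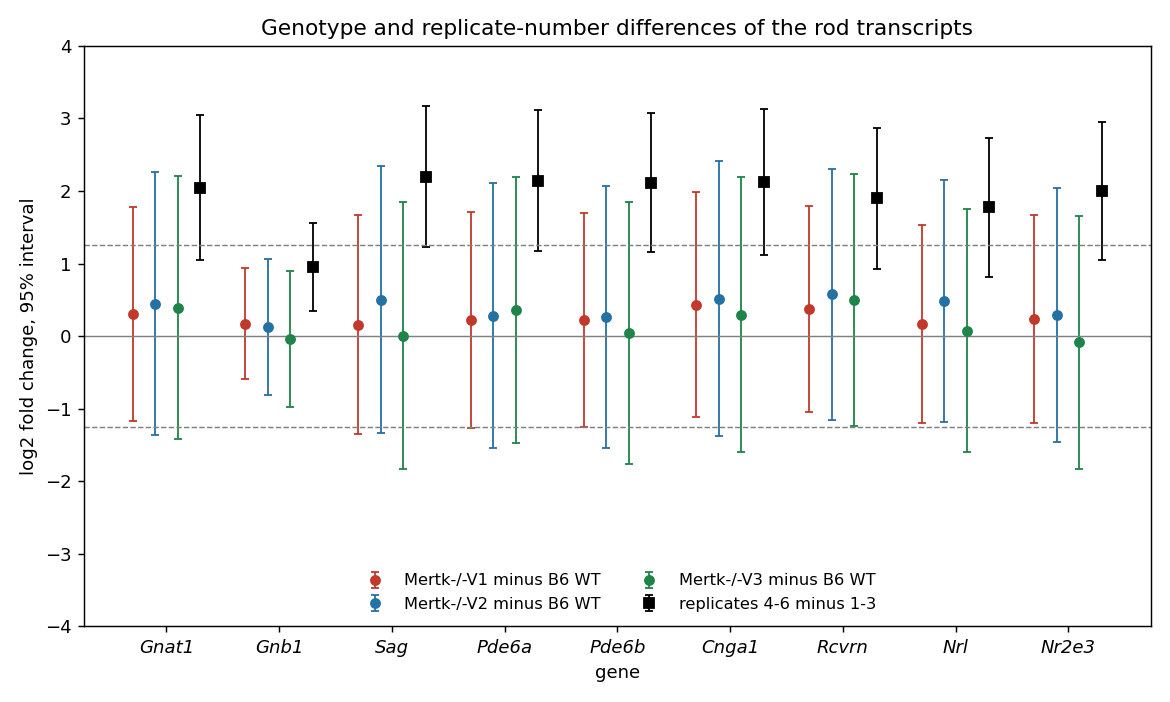
Log2 fold changes of the 9 rod genes with 95% intervals from limma, for the 3 knockouts against B6 WT (circles, 18 libraries) and for replicates 4 to 6 against 1 to 3 of B6 WT and Mertk-/-V1 (squares, 12 libraries); dashed lines are at the threshold of 2.38-fold either way. All 27 genotype intervals span 0, and the 9 replicate-number intervals lie above it.

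The separation was seen in both genotypes. In B6 WT, 8 of the 9 genes were higher in each library of replicates 4 to 6 than in each of 1 to 3, beside 17.5% of all genes, and in Mertk-/-V1 9 of 9, beside 19.4%. Gnat1 averaged 18326 ± 9498 (SD, n = 3) in B6 WT replicates 1 to 3 and 53317 ± 21278 (SD, n = 3) in 4 to 6. In Mertk-/-V1 the averages were 15310 ± 4172 (SD, n = 3) and 106140 ± 79195 (SD, n = 3). Replicate 4 was the lowest of its set in both genotypes, with Gnat1 at 29220 (B6 WT) and 29402 (Mertk-/-V1). The highest of replicates 1 to 3 was 24980 in B6 WT and 20104 in Mertk-/-V1. Replicates 5 and 6 stood far higher, at 61214 and 69518 in B6 WT and 101436 and 187583 in Mertk-/-V1. Fitted in 1 genotype at a time, with 3 libraries against 3, the log2 difference of Gnat1 was 1.63 in B6 WT and 2.46 in Mertk-/-V1, and 0 of 9 genes passed in either (adjusted p of 0.113 to 0.125 and of 0.0707 to 0.105). At that size 0 genes of the whole table were called in either genotype, while the 9 rod genes had an unadjusted p under 0.05 in both, as did 31.9% of all genes in B6 WT and 36.6% in Mertk-/-V1. Leaving out Mertk-/-V1 replicates 5 and 6 together, an alternative added after seeing the data, left 6 of 9 genes called, beside 3.92% of all genes, with Gnat1 at a log2 difference of 1.41 (adjusted p = 0.0340). The Mertk-/-V1 effect did not differ detectably between the sets, by the interaction of genotype and set: 0 of 9 genes, beside 0% of all genes, with 0 of 9 at an unadjusted p under 0.05 (1249 of 18795 genes overall) and 0 by edgeR. For Gnat1 the effect in replicates 1 to 3 minus that in 4 to 6 was -0.83 (95% interval -2.87 to 1.20). The median over the 9 genes was -0.65, and it moved to -1.36 without Mertk-/-V1 replicate 4, where 3 of 9 genes had an unadjusted p under 0.05 (27.2% of all genes; lowest adjusted p of a rod gene 0.0753), and to -0.19 without Mertk-/-V1 replicate 5.

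The comparison with B6 WT turned on which of its libraries were used. Against B6 WT replicates 4 to 6 alone, the log2 fold changes of all 9 genes were below 0 in Mertk-/-V2 (-0.64 to -0.16) and in Mertk-/-V3 (-0.99 to -0.25). Against replicates 1 to 3 alone they were all above 0, at 0.45 to 1.44 and 0.29 to 1.23. For Mertk-/-V1, replicates 1 to 3 of both genotypes gave -0.19 to 0.08, and replicates 4 to 6 gave 0.43 to 0.80. None of the 9 genes passed in any of these fits, which called few genes of the whole table. Against B6 WT replicates 4 to 6 they called 4 of 18916 for Mertk-/-V2 and 4 for Mertk-/-V3. Against replicates 1 to 3 they called 7 and 9 of 18794. For Mertk-/-V1 they called 11 of 18241 in replicates 1 to 3 and 1 of 19096 in 4 to 6. Without Mertk-/-V1 replicates 5 and 6 the Mertk-/-V1 values were -0.83 to -0.40, also with 0 of 9, beside 21 of 18738 genes.

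Markers of other retinal cells went the same way as the rods. Between replicates 4 to 6 and 1 to 3, 23 of 31 other rod and pan-photoreceptor genes tested were higher and 0 lower, with a median of 3.68-fold. So were 8 of 12 cone genes (3.57-fold), 7 of 10 bipolar cell genes (5.11-fold) and 7 of 9 tested amacrine, horizontal and ganglion cell genes (5.45-fold), with 0 lower in each list. Of all genes, 7.35% were called higher and 371 of 18795 lower, and the median was 0.996-fold. Of the Mueller glia and astrocyte list 1 of 8 was higher, and of the choroid endothelium and pericyte list 1 of 9. In lists of this size, 1 gene is near the share of all genes. None of 10 macrophage and microglia genes, 6 melanocyte genes and 13 RPE genes passed the fold threshold, though 11 of the 13 RPE genes had an adjusted p under 0.05, as did 40.8% of all genes, with a list median of 0.628-fold. All 5 red blood cell genes were lower in replicates 4 to 6, with a median of 0.247-fold.

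Between libraries, the 12 cone genes, led by Gnb3, the cone transducin beta subunit, summed to 2836 normalized counts in B6 WT replicate 1 and 28530 in Mertk-/-V1 replicate 6. The 10 bipolar cell genes summed to 11148 to 24747, most of it Gnao1 (9098 to 13547), a G protein subunit that other cells also use and whose correlation with the rod genes was 0.38. The summed RPE genes were lowest in Mertk-/-V1 replicates 6 (210227) and 5 (270738) and in Mertk-/-V3 replicate 1 (303511), the 3 libraries with the most Gnat1. Red blood cell genes divided the libraries otherwise. They summed to 17682 to 54305 in B6 WT replicates 1 to 3 and 24707 to 79594 in Mertk-/-V1 replicates 1 to 3, and to 30413 to 63450 in Mertk-/-V2. They were at 7695 to 10238 in B6 WT and 7336 to 16721 in Mertk-/-V1 replicates 4 to 6, and at 4310 to 8032 in Mertk-/-V3. In blood RNA and depth Mertk-/-V3 thus lay near replicates 4 to 6, and within Mertk-/-V3 Gnat1 varied from 13912 to 88077. The part of depth and blood RNA in the difference of the rod genes between sets was not tested.

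**Figure D4:**
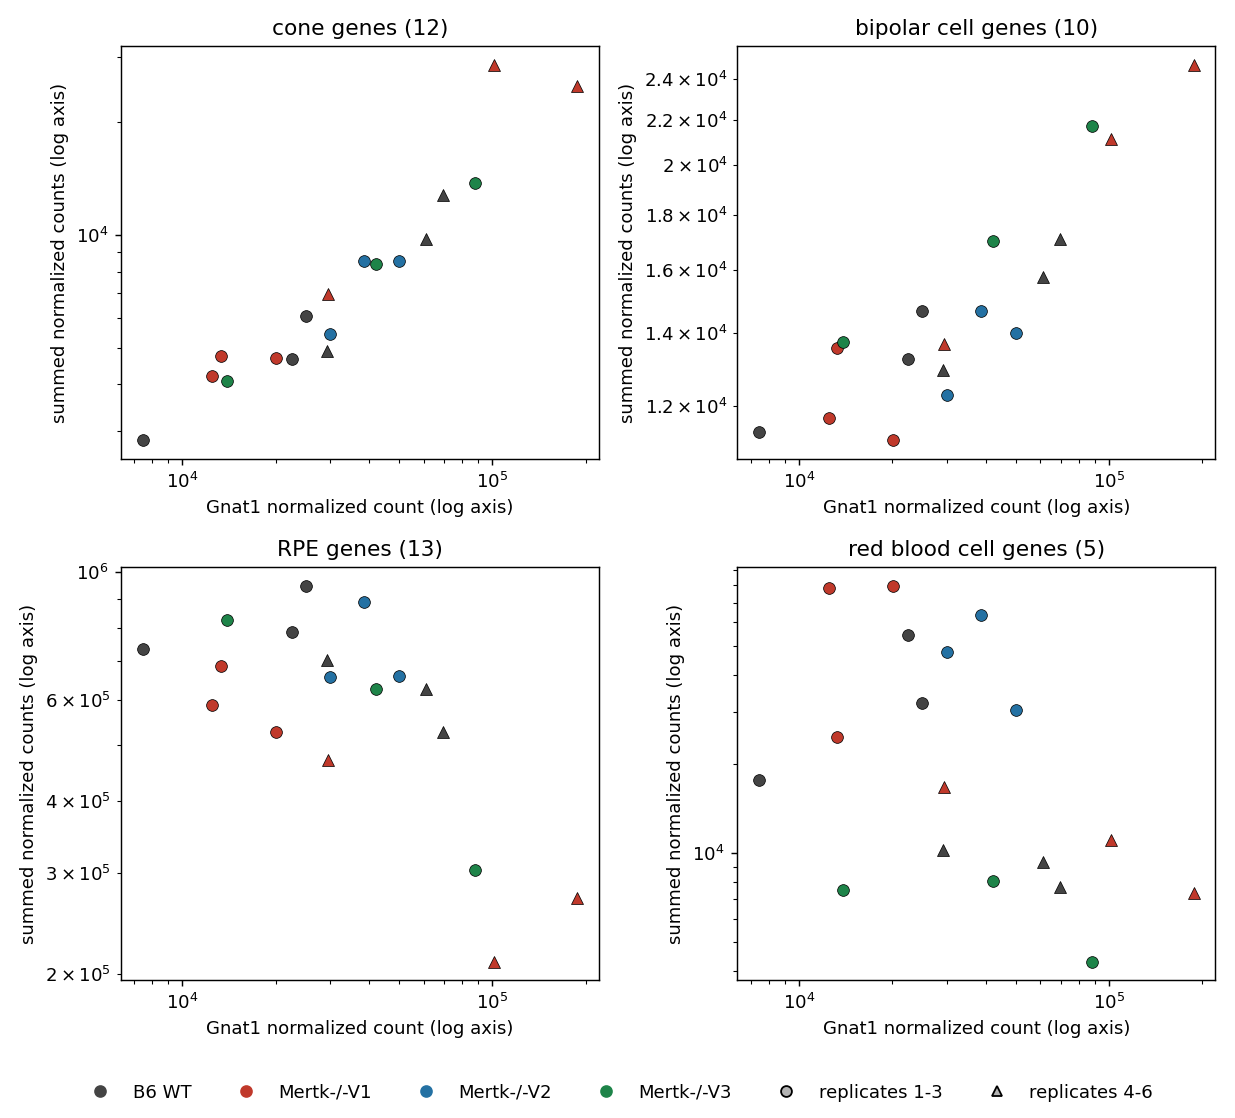
Summed normalized counts of cone, bipolar cell, RPE and red blood cell genes against Gnat1 in the 18 RPE libraries (both axes log), coloured by genotype, with circles for replicates 1 to 3 and triangles for 4 to 6. Cone and bipolar sums climb with Gnat1, RPE sums are lowest in the 3 libraries with the most Gnat1, and red blood cell sums are low in all triangles and in Mertk-/-V3.

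Correlations of log2 Gnat1 with the cone, bipolar and RPE sums and with depth were computed over all 18 libraries. They were also computed within replicates 1 to 3 of the 4 genotypes (12 libraries) and within replicates 4 to 6 (6 libraries). Permutation p-values were adjusted over these 12 relations. The permutations treat libraries as exchangeable, without regard to genotype or replicate number. Gnat1 and the marker sums also share the scaling of each library. With the cone sum, Pearson's r was 0.95 over 18 libraries (Spearman's rank correlation 0.97; both permutation p = 1e-05, the smallest that 100000 resamples can give, adjusted p = 4e-05 and 6e-05). It was 0.97 within replicates 1 to 3 (Spearman 0.92; permutation p = 1e-05 and 6e-05, adjusted p = 4e-05 and 0.00024) and 0.93 within 4 to 6 (Spearman 0.94; exact permutation p = 0.0139 and 0.0167, adjusted p = 0.0238 and 0.0286). Without the 2 libraries farthest from the median of the cone sum r was 0.96, 0.92 and 0.99 in turn.

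With the bipolar sum, r was 0.88 over 18 libraries (Spearman 0.85; both permutation p = 1e-05, adjusted p = 4e-05 and 6e-05). Within replicates 1 to 3 it was 0.78 (Spearman 0.75; permutation p = 0.00242 and 0.0069, adjusted p = 0.00556 and 0.0166), and within 4 to 6 it was 0.98 (Spearman 1.0; both exact permutation p = 0.00278, adjusted p = 0.00556 and 0.00833). Without the 2 farthest libraries r was 0.81, 0.56 and 0.97. The second of these, within replicates 1 to 3 and without Mertk-/-V3 replicates 1 and 2, no longer passed (permutation p = 0.0973). As the range is then narrower, this does not show whether that relation rests on these 2 libraries.

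With the RPE sum, r was -0.69 over 18 libraries (Spearman -0.57; permutation p = 0.00116 and 0.0155, adjusted p = 0.00348 and 0.0286). Whether the relation rests on Mertk-/-V1 replicates 5 and 6 is not settled, since leaving them out also narrows the range. Without them r was -0.47 (permutation p = 0.0667) and no longer passed. Within replicates 1 to 3 it was -0.46 (Spearman -0.19; permutation p = 0.132 and 0.557, adjusted p = 0.159 and 0.557), and within 4 to 6 -0.74 (Spearman -0.77; exact permutation p = 0.114 and 0.103, adjusted p = 0.152 and 0.135). Without the 2 farthest libraries those became -0.0030 and -0.055.

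With total reads, r was -0.39 over 18 libraries (Spearman -0.39; permutation p = 0.107 and 0.112, adjusted p = 0.152 and 0.135) and -0.40 without the 2 farthest. The sign was not the same within sets, at -0.20 within replicates 1 to 3 (Spearman -0.27; permutation p = 0.528 and 0.391, adjusted p = 0.528 and 0.426) and 0.59 within 4 to 6 (Spearman 0.83; exact permutation p = 0.189 and 0.0583, adjusted p = 0.206 and 0.0875). Without the 2 farthest these were -0.46 and 0.45. In groups of 4 libraries no exact permutation p can fall below 0.0833.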

How the data were processed

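The authors sequenced polyA RNA as 150 bp paired-end reads, trimmed them with btrim, aligned them to GRCm38 with STAR and normalized the gene counts with DESeq2; the read counter, strand setting and tool versions are not given in the sources used here. The deposited tables hold, for RPE and for BMDMs, a normalized signal per gene, read counts divided by a size factor per library. In the RPE table, dividing each library by its smallest value above 0 gave whole reads for 100% of values within 0.001, and these recovered reads gave the totals (14137666 to 34124049) and the count tests. BMDM values were used only as CPM, scaled to the column total.

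RPE values were tested as log2(value + 1) with limma 3.58.1 (lmFit, eBayes with trend) in R 4.3.3, on genes with a mean of at least 10 (18832 over 18 libraries, 18795 over the 12 of B6 WT and Mertk-/-V1). P-values were adjusted by Benjamini-Hochberg over all genes tested, and a gene was called where its adjusted p was below 0.05 and it differed at least 2.38-fold either way. Fold changes are on the log2(value + 1) scale. Genotypes were compared over 18 libraries with no covariate, and replicate sets over 12 with genotype as a term, coded 4 to 6 minus 1 to 3. Alternatives were edgeR 4.0.16, DESeq2 1.42.0, another pseudocount, no filter, quantile normalization, array quality weights, the replicate number or set as a term, subsets of libraries, same-numbered libraries averaged or linked by duplicateCorrelation (added after seeing the data), and each library left out. On simulated counts, limma recovered 81% of 200 genes changed 2 log2 units between Mertk-/-V1 and B6 WT (18655 genes, 3 false calls). Between replicate sets it recovered 90% (18614 genes, 3 false calls). The changed genes were drawn at random, and the simulated libraries were independent of each other. The rod genes other than Gnb1 had a residual SD of 1.21 to 1.37, beside a median of 0.35 over all genes. The recovered shares thus do not give the power for the rod genes.

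Same-numbered libraries of B6 WT and Mertk-/-V1 deviated together from their group means (correlations 0.12 to 0.72 over 6 pairs). Libraries of different numbers within a set were not compared, so this cannot tell pairing by number from the difference between sets. With the set in the model, the consensus correlation by number was 0.146. The labels do not state a pairing. Gene positions and exon lengths were taken from GENCODE vM21 (55394 of 55573 identifiers matched). All 9 rod genes are named, along with 8 of the 10 genes most correlated with them (the others are not reported here) and the most abundant gene of some marker lists; Abca4, and the correlation of Gnao1, were picked after their values were seen. The rod genes, the marker lists and the tests were chosen with earlier results of these data known.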

Additional observations from a re-analysis of the deposited data

How the results depend on the processing

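For the 4 genotype contrasts and the interaction, 0 of 9 rod genes passed under every alternative run, with the replicate block and the replicate set included. The block joins same-numbered libraries, which deviated together in every pair only between B6 WT and Mertk-/-V1. With the block, 0 of 9 passed in each contrast. The number of genes called in the whole table was 37 against 28 without it for Mertk-/-V1 and 200 against 11 for Mertk-/-V2. It was 1270 against 12 for Mertk-/-V3 and 558 against 18 for Mertk-/-V1 against the other knockouts. Across the other alternatives these counts ranged from 1 to 73, 4 to 127, 4 to 1678 and 13 to 794. At an unadjusted p under 0.05, the block gave 0 of 9 rod genes for Mertk-/-V1 (12.2% of all genes), 8 for Mertk-/-V2 (20.3%), 6 for Mertk-/-V3 (44.2%) and 5 for Mertk-/-V1 against the other two (26.5%). The replicate set as a term gave 0 (10.6%), 7 (16.9%), 3 (42.3%) and 2 (24.8%), and array quality weights 0 (9.32%), 0 (23.7%), 4 (69.9%) and 8 (42.5%); with these weights the lowest adjusted p of a rod gene was 0.0388 for Mertk-/-V3 and 0.0418 for the last contrast, under the fold threshold. No rod gene that passed changed sign; of the 810 values of rod genes that never passed in a genotype contrast, 173 differed in sign from the reported one, and the median over the 9 genes ranged from -0.68 to 0.52, -0.37 to 1.37, -0.59 to 1.11 and -1.03 to 0.48. The higher values for Mertk-/-V2 and Mertk-/-V3 (1.37 and 1.11) came with the replicate block or set.

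Between replicate sets, 8 or 9 genes passed in all alternatives but 4: 6 without Mertk-/-V1 replicates 5 and 6 (chosen after seeing the data), 0 within B6 WT or within Mertk-/-V1 alone, where 6 libraries remain, and 0 with same-numbered libraries averaged (also chosen after seeing the data), where 6 averages remain. With the replicate block as a random effect 8 passed. With 1 library left out at a time, 8 of 9 passed throughout, with a median log2 difference of 1.78 (without Mertk-/-V1 replicate 5) to 2.33 (without Mertk-/-V1 replicate 4), and 1347 to 2237 genes of the table. In the interaction, leaving out Mertk-/-V1 replicate 4 called 388 genes where 0 were called otherwise, none of them a rod gene; without Mertk-/-V1 replicates 5 and 6 the median interaction was 0.80 in place of -0.65.

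The correlation of Gnat1 with the RPE sum (-0.69) no longer passed without the 2 farthest libraries (-0.47), within replicates 1 to 3 (-0.46) or within replicates 4 to 6 (-0.74). Counts were high enough for each rod gene in each library that depth did not limit detection; 3 libraries in Mertk-/-V2 and Mertk-/-V3 limit the genotype intervals.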
